A study of Mus musculus with 11 samples.

Results

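The 9 genes described here were the Hox genes of paralogue groups 9 to 13 in the mouse HoxA and HoxD clusters: Hoxa9, Hoxa10, Hoxa11, Hoxa13, Hoxd9, Hoxd10, Hoxd11, Hoxd12 and Hoxd13. They were chosen by symbol, by a rule that uses none of their values, from 47517 gene names in a table of RNA-seq read counts. Earlier results of these data were known when that choice was made. All 9 were among the 15821 genes that passed the filter on low counts, and the table holds 39 Hox genes in all. RNA came from forelimb buds of mouse embryos on a C57BL/6 background at E10.5 (E for embryonic day). Control embryos (5 libraries) were Gmnn +/f with Prx-Cre, that is, with 1 wild-type and 1 floxed allele of Gmnn, the gene for geminin, a nuclear protein that restrains DNA replication licensing and binds chromatin regulators. Mutant embryos (6 libraries) were Gmnn f/f with Prx-Cre, so both groups carried the Cre transgene and at least 1 floxed allele. Prx-Cre is driven by a limb enhancer of Prrx1 and recombines in limb bud mesenchyme, while the buds also hold ectoderm, blood, vessels and muscle precursors. The titles name 4 litters, written A to D in what follows. Litter A gave 4 libraries, controls 1 and 2 with mutants 1 and 2. Control 3 was a littermate of mutant 6 (litter B) and control 4 of mutant 5 (litter C). From litter D came mutants 3 and 4 with control 5. The labels say that embryos were matched by litter and somite stage, but give no somite number for an embryo and do not say whether buds were pooled.

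Hox genes lie in clusters, and in the limb bud the HoxA and HoxD clusters are switched on in order from the 3′ end, which holds the low paralogue numbers, to the 5′ end. Groups 9 and 10 come on early and broadly, group 11 is known for patterning the forearm, and Hoxa13 and Hoxd13 come on last, at the posterior and distal edge, and are required for the hand. In the posterior bud the 5′ HoxD genes and the secreted signal Sonic hedgehog (Shh) sustain each other, while Hoxa13 and Hoxd13 proteins later repress proximal genes.

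Total counts ran from 14777833 to 19733288 in controls and from 14721181 to 17034741 in mutants. Values are CPM, counts scaled to a common library total, unless stated otherwise, and SD is over libraries. Gmnn itself was listed at 139.3 to 238.9 CPM in controls and 99.5 to 137.7 CPM in mutants. The groups did not overlap, and edgeR's quasi-likelihood test with Benjamini-Hochberg adjustment gave a log2 fold change of -0.67 (adjusted p = 0.0291). The count sums all Gmnn exons and does not tell recombined from intact alleles. The forelimb gene Tbx5 lay at 64.8 to 122.9 CPM and the hindlimb gene Tbx4 at 0.561 to 6.11 CPM, and Pitx1, another hindlimb gene, reached 4.07 CPM in control 2 and at most 0.595 CPM elsewhere. Control 5 and, to a lesser degree, mutant 4, both of litter D, stood apart from the other 9 libraries in most of the 5′ Hox genes, so results that rest on them are also given without them. In whole buds, fewer cells of a type and less RNA per cell cannot be told apart.

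The HoxA members lie on the minus strand of chromosome 6 between 52223100 and 52260880 and the HoxD members on the plus strand of chromosome 2 between 74668310 and 74700208 (mm10), with the group 13 gene at the 5′ end of each cluster. Per kilobase of exon, Hoxa13, Hoxd11, Hoxd12 and Hoxd13 were the 4 lowest members, whereas Hoxd10 was the highest and varied less between libraries. The 250 bases before the annotated start of these 5 genes are shown so that the letters beside the variable and the steady genes can be compared. They are RefSeq windows on GRCm38.p6, 5′ to 3′ on the gene's strand, with CpG dinucleotides in capitals and, in the Hoxd13 window, also the letters TATAAA on either strand. The coordinates are chr2:74667975-74668224 (plus) for Hoxd13, chr2:74674763-74675012 (plus) for Hoxd12, chr2:74682073-74682322 (plus) for the second of 2 annotated starts of Hoxd11, chr6:52260881-52261130 (minus) for Hoxa13 and chr2:74691641-74691890 (plus) for Hoxd10.
Hoxd13: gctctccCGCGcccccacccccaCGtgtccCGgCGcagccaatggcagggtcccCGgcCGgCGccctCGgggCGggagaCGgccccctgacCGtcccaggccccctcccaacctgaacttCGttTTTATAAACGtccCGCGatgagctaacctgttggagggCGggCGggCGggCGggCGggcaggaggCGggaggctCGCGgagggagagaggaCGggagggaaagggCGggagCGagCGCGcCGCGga
Hoxd12: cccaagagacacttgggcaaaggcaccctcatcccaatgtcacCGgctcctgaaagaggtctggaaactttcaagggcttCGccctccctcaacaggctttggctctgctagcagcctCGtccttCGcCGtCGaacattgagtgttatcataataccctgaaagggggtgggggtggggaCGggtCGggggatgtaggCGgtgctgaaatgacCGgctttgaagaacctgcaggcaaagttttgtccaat
Hoxd11: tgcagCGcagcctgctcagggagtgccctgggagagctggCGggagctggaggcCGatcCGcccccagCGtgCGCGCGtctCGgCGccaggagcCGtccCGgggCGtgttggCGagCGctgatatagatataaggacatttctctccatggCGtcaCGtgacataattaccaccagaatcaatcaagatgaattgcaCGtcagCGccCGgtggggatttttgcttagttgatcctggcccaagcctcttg
Hoxa13: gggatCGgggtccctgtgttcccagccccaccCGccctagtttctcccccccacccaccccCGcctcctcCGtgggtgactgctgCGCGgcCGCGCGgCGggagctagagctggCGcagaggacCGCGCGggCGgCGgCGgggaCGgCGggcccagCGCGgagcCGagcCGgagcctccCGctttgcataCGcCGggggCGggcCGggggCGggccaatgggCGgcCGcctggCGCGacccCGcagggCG
Hoxd10: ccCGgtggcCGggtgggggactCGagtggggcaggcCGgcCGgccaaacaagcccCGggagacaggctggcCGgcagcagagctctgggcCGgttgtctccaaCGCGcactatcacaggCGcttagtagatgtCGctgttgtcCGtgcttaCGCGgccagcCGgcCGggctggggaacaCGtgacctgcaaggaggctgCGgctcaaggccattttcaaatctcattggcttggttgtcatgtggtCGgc
The Hoxa13 window held 35 CpG dinucleotides with a GC content of 80.0%, and the Hoxd13 window held 31 with 74.4%. These were 2 of the most GC-rich windows, since 98.8% and 95.4% of the 32817 RefSeq windows of this length had a lower GC content. Hoxd12, at 55.6% GC and 10 CpG dinucleotides, was nearer the median window, which had 52.4% and 6. Hoxd11 had 60.4% with 20 CpG dinucleotides and Hoxd10 65.6% with 20. The first Hoxd11 start, not shown, had 44.8% with 2. All 9 members matched the RefSeq table, with 11 windows because Hoxa10 and Hoxd11 each have 2 annotated starts.

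Short motifs, 4 in all, were searched on both strands of those 11 windows. A posterior Hox and Cdx motif, TTTATNG, was found in 0 of the 11 windows and in 9.81% of all windows. The Meis motif TGACAG was found in 0 of the 11 and in 15.9% of all windows, and the Gli motif TGGGTGGTC in 0 of the 11 and in 0.225% of all. TATAAA was found in the Hoxd13 window, where 1 match on each strand overlap each other, and in the second Hoxa10 window, against 12.4% of all windows. These counts describe the letters in 250 bases before each start and nothing outside them.

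Along both clusters the mean level per kilobase of exon rose from group 9 to group 10 and then fell to group 11. Levels were compared between genes as CPM per kilobase of exon in the deposited gene model. In HoxD the mean over all 11 libraries was 24.1 ± 9.72 (SD) CPM per kilobase for Hoxd9, 60.0 ± 11.8 for Hoxd10, 4.66 ± 2.05 for Hoxd11, 7.52 ± 5.22 for Hoxd12 and 7.36 ± 3.95 for Hoxd13. In HoxA it was 14.8 ± 1.93 CPM per kilobase for Hoxa9, 34.4 ± 13 for Hoxa10, 9.92 ± 2.96 for Hoxa11 and 0.778 ± 1.27 for Hoxa13. Ordered by mean level the members were Hoxd10, Hoxa10, Hoxd9, Hoxa9, Hoxa11, Hoxd12, Hoxd13, Hoxd11 and Hoxa13. In that order the gaps from Hoxa10 to Hoxd9, from Hoxd9 to Hoxa9, from Hoxa11 to Hoxd12, from Hoxd12 to Hoxd13 and from Hoxd13 to Hoxd11 were smaller than the larger SD of the pair.

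The 7 steps between cluster neighbours were tested within libraries by an exact two-sided sign-flip permutation test, whose smallest possible p with 11 libraries is 0.000977, with Benjamini-Hochberg adjustment over the 7. Hoxd10 was above Hoxd9 in 11 of 11 libraries, by 1.4 ± 0.38 (SD) on the log2 per-kilobase scale, and Hoxd11 was below Hoxd10 in 11 of 11, the difference being -3.85 ± 1.11 (exact permutation, adjusted p = 0.00171 each). On that scale Hoxa10 was above Hoxa9 by 1.10 ± 0.73 in 10 of 11 libraries, the exception being control 5 (exact permutation, adjusted p = 0.0041). Hoxa11 was below Hoxa10 in all 11 libraries, with a mean difference of -1.73 ± 0.42, and Hoxa13 was below Hoxa11 in all 11, with -4.87 ± 1.82 (exact permutation, adjusted p = 0.00171 each). The members beyond Hoxd11 did not form a further ordered descent. Hoxd12 was above Hoxd11 in 9 of 11 libraries and below it in control 5 and mutant 4, with a mean difference of 0.15 ± 1.16 (exact permutation, adjusted p = 0.67). Hoxd13 was above Hoxd12 in 5 libraries and below it in 6, with a mean of 0.46 ± 1.14 (exact permutation, adjusted p = 0.322). Without control 5 and mutant 4, 6 of the 7 steps passed in place of 5.

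**Figure D1:**
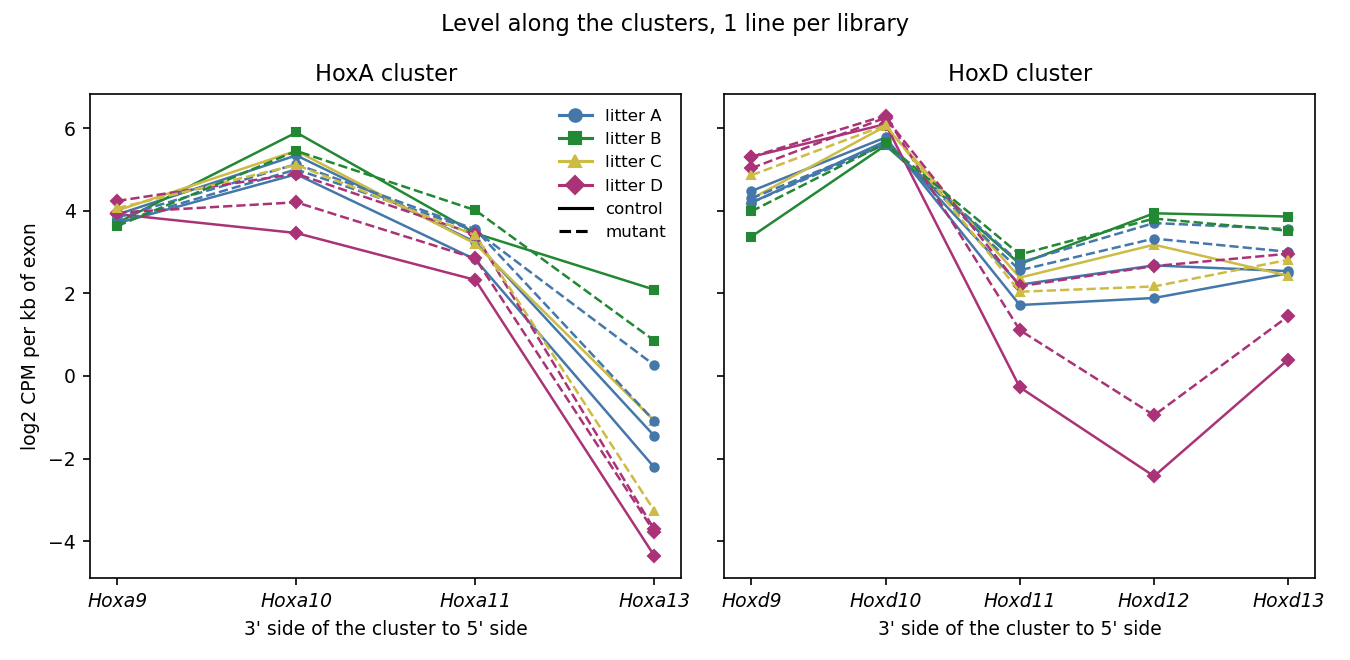
Level along the HoxA (left) and HoxD (right) clusters, as log2 CPM per kilobase of exon (y) for each gene from the 3′ to the 5′ side (x), with 1 line per library, coloured by litter and dashed for mutants. Every line falls from Hoxd10 to Hoxd11, and the lines of control 5 and mutant 4 fall farthest at Hoxd12, to 0.350 and 1.19 CPM before division by length.

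The gene models limit some of these levels. Strand was not used in counting, reads that fell on 2 genes were dropped, and 35.0% of the Hoxa11 exon bases lie in the antisense transcript Hoxa11os, 10.8% of Hoxd11 and 5.73% of Hoxd10 in the predicted gene Gm28309, and 1.52% of Hoxa9 in Mir196b. For Hoxa11 and Hoxa11os, sense and antisense reads cannot be told apart where the count holds both. With the length limited to bases outside other genes, the same 5 steps passed. The deposited lengths also differ, at 5580 bases for Hoxa9, 3270 for Hoxa10, 4212 for Hoxd11 and 2534 for Hoxd12, and they shape the per-kilobase order. In CPM, not divided by length, Hoxa10 was below Hoxa9 in control 5, mutant 3 and mutant 4. Mean CPM over all libraries was 19.6 for Hoxd11, 19.0 for Hoxd12 and 18.3 for Hoxd13.

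Hoxd13, the 5′-most HoxD gene and a determinant of digits, stood at 14.3, 13.8, 36, 13.2 and 3.15 CPM in controls 1 to 5 and at 29.2, 19.8, 19.2, 6.66, 17.4 and 28.3 CPM in mutants 1 to 6. The groups overlapped, control 3 of litter B was the highest of all libraries, and control 5 and mutant 4 were the lowest. Hoxd12, its neighbour, which is also restricted to the posterior bud at this age, was at 16.1, 9.27, 38.8, 22.8 and 0.350 CPM in controls and 32.9, 25.3, 15.9, 1.19, 11.3 and 35.5 CPM in mutants. The values in control 5 and mutant 4 came from 5 and 20 reads, and litter B held the highest value of each group. Hoxd11, which acts with Hoxa11 in the forearm, was at 19.4, 13.7, 27.5, 21.8 and 3.36 CPM in controls and 28.2, 24.7, 18.9, 8.98, 17.2 and 32.3 CPM in mutants. The same 2 libraries were lowest in it and the same litter was highest, and again the groups overlapped.

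Hoxa13, which is needed for the hand plate and marks the most distal cells, was the only member with a library at 0 reads. In controls 1 to 5 it had 14, 8, 191, 18 and 0 reads (0.783, 0.412, 10.4, 1.05 and 0 CPM). In mutants 1 to 6 it had 18, 43, 1, 1, 2 and 71 reads (1.04, 2.85, 0.0672, 0.0595, 0.137 and 4.36 CPM). The 0 reads in control 5 allow up to 3 reads, or 0.210 CPM, by counting error alone, and all 3 libraries of litter D had at most 1 read. Control 3 and mutant 6, the libraries of litter B, held 262 of the 367 Hoxa13 reads of the series. Hoxa11 was at 21.5, 16.1, 25, 20.9 and 11.4 CPM in controls and 26.7, 26.1, 24.5, 16.4, 24.2 and 36.9 CPM in mutants. Within each litter every mutant was above every control, while over all litters the groups overlapped.

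Hoxa10, a group 10 gene of the proximal and middle limb, was at 132.7, 96.6, 194.9, 143.3 and 35.9 CPM in controls and 114.6, 104.8, 97.4, 60.3, 113.1 and 142.9 CPM in mutants. Its highest and lowest values were both controls, control 3 and control 5, and the groups overlapped. Hoxa9, which helps set the posterior limb together with the other group 9 genes, was the steadiest member, at 83.8, 72.4, 72.9, 89.6 and 84.4 CPM in controls and 79.7, 73.8, 105.3, 86.6, 93.3 and 69.1 CPM in mutants. No library stood apart in it. Hoxd9 was at 39.0, 47.5, 22.0, 41.7 and 84.5 CPM in controls and 39.0, 42.0, 69.8, 84.4, 62.0 and 33.7 CPM in mutants, and Hoxd10 at 93.4, 99.5, 87.2, 120.1 and 124.5 CPM in controls and 89.0, 89.8, 138.7, 143.9, 122.4 and 90.1 CPM in mutants. In both, control 5 and mutant 4 were the highest of their group, the opposite of Hoxd11, Hoxd12 and Hoxd13 on the same chromosome.

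**Figure D2:**
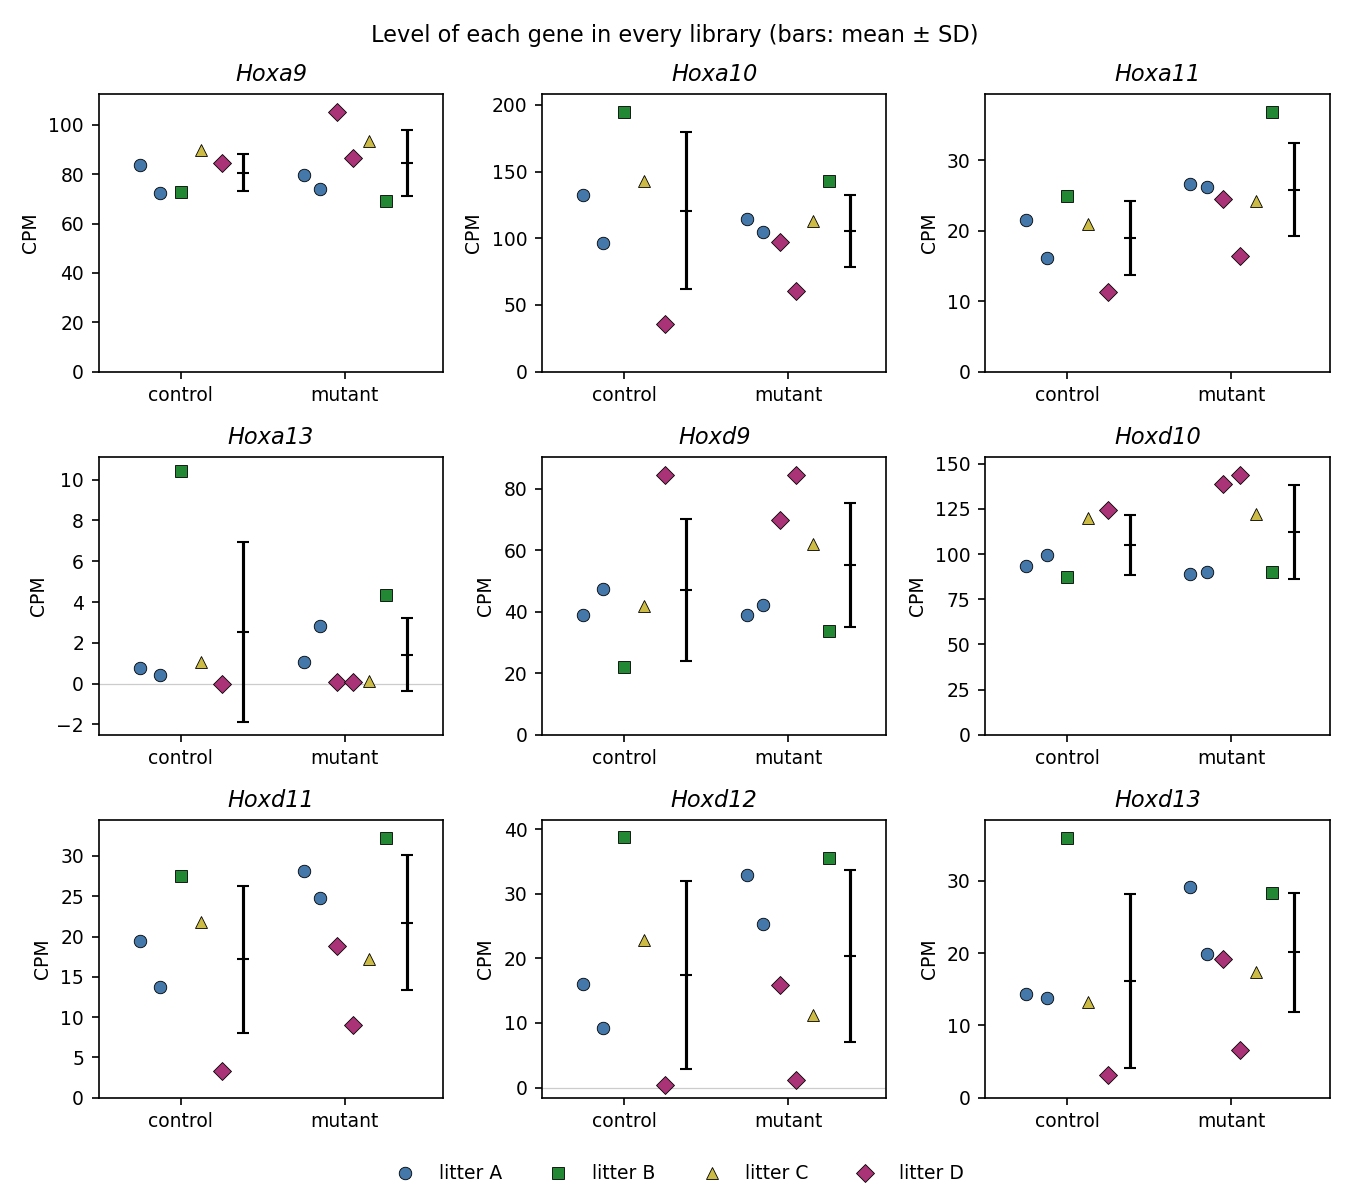
Level of each gene in CPM (y, linear) in the 5 control and 6 mutant libraries (x), 1 point per library with colour and shape for its litter, and bars for the mean ± SD of the group. Litter B is highest and litter D lowest for Hoxa13, where litter B has 4.36 and 10.4 CPM, and the order is turned for Hoxd9, where litter D has 69.8 to 84.5 CPM.

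The spread between libraries was widest in Hoxa13 and in the 3 HoxD genes at the 5′ end. The SD of log2 CPM over the 11 libraries was 0.18 for Hoxa9, 0.66 for Hoxa10, 0.45 for Hoxa11 and 2.09 for Hoxa13. It was 0.59 for Hoxd9, 0.28 for Hoxd10, 0.92 for Hoxd11, 2.05 for Hoxd12 and 0.99 for Hoxd13, against a median of 0.27 over all genes tested. Hoxa13 and Hoxd12 each had a larger SD than 99.9% of genes tested, Hoxd13 than 96.4% and Hoxd11 than 95.2%, while Hoxa9 exceeded 27.1% and Hoxd10 50.6%. A low count widens the SD, which touches Hoxa13 most.

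The ratio of the end genes of the HoxD stretch, Hoxd13 over Hoxd9 as a log2 ratio per kilobase, summarised these opposite levels. It was -1.66, -1.99, 0.49, -1.86 and -4.91 in controls 1 to 5 and -0.64, -1.29, -2.07, -3.86, -2.05 and -0.47 in mutants 1 to 6. Control 3 was the only library in which Hoxd13 exceeded Hoxd9. The means were -1.99 ± 1.92 (SD, n = 5) in controls and -1.73 ± 1.24 (SD, n = 6) in mutants, a gap smaller than either SD. Both SDs include the differences between litters. Within litters, mutants were above the controls in litters A and D and below them in litters B and C.

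Litters differed in all 9 members at an unadjusted p under 0.05 in edgeR's quasi-likelihood test of the 3 litter coefficients, against 13.5% of the genes tested. With Benjamini-Hochberg adjustment over all genes, 2 members passed, Hoxd9 (adjusted p = 0.0498) and Hoxd10 (adjusted p = 0.0498), against 0.0885% of genes tested, or 14 genes. Hoxd9 was the seventh and Hoxd10 the 13th gene of the whole table by that test. Hoxd10 was at 87.2 to 90.1 CPM in litter B, 89.0 to 99.5 in litter A, 120.1 to 122.4 in litter C and 124.5 to 143.9 in litter D, so litters C and D lay above A and B without overlap. Hoxd9 ran from 22.0 to 33.7 CPM in litter B, 39.0 to 47.5 in litter A, 41.7 to 62.0 in litter C and 69.8 to 84.5 in litter D. The adjusted p of the other members was 0.0681 for Hoxa13, 0.164 for Hoxa11, 0.177 for Hoxa10, 0.200 for Hoxd13, 0.217 for Hoxd11, 0.278 for Hoxa9 and 0.334 for Hoxd12. Both calls sat close to the threshold: neither was made with upper-quartile scaling, nor without control 3, 4 or 5 or without mutant 1, 4, 5 or 6, each left out in turn. Without control 1 Hoxd9 was the 1 member that passed, against 0.122% of genes tested. Without mutant 3 there were 5 members past the threshold, with Hoxd9 but not Hoxd10 among them, and 87 genes in all (0.553%). With no filter on low counts 8 members passed, against 5.41% of genes. Litter, and anything that differed between litters such as exact stage or day of dissection, cannot be told apart here.

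On log2 CPM with litter effects left in, the members fell into 2 opposed groups, which were read from the correlations themselves and so carry no test as groups. Among Hoxa10, Hoxa11, Hoxa13, Hoxd11, Hoxd12 and Hoxd13 the Pearson r of log2 CPM was positive in all 15 pairs, from 0.667 to 0.977. Among Hoxa9, Hoxd9 and Hoxd10 it was positive in all 3 pairs, from 0.629 to 0.857. Between the groups it was negative in all 18 pairs, from -0.952 to -0.220. Of the 36 pairs, 28 passed a permutation test with Benjamini-Hochberg adjustment over the 36, and 27 did so by Spearman's rho. Without the 2 libraries farthest from the median of the first gene, 17 passed, and without control 5 and mutant 4, 7 passed. The pairs share libraries, so the counts are not independent. The permutation also shuffled all 11 libraries freely, without regard to the 4 litters. For pairs that move together between litters its p-values can therefore be too small.

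The closest pair was Hoxd11 and Hoxd12, neighbours in the cluster (r = 0.977, permutation p = 1e-05, the smallest 100000 resamples can give, adjusted p = 0.00012; rho = 0.973, permutation p = 2e-05, adjusted p = 0.00054). Without control 5 and mutant 4, which are also the 2 libraries farthest from the Hoxd11 median, r was 0.972, and with litter and genotype effects removed it was 0.959. The pair most opposed was Hoxa13 and Hoxd9, on different chromosomes (r = -0.952, permutation p = 1e-05, adjusted p = 0.00012; rho = -0.909, permutation p = 0.00019, adjusted p = 0.0019). For this pair r was -0.905 without controls 3 and 5, the farthest in Hoxa13, -0.938 without control 5 and mutant 4, and -0.775 with litter and genotype effects removed. Hoxa10 and Hoxd11 had r = 0.923 (permutation p = 0.00054, adjusted p = 0.00162; rho = 0.800, permutation p = 0.0045, adjusted p = 0.00853). Without control 5 and mutant 4 r was 0.573 in the other 9 libraries (adjusted p = 0.173 by permutation), so its call rests on those 2 libraries. With litter and genotype effects removed it was 0.958 over all 11.

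With litter and genotype effects removed the 2 groups were no longer opposed in every pair. Between them r was positive in 10 of the 18 pairs, from -0.82 to 0.83 with a median of 0.06. The median thus covers strong pairs of either sign. Of these 18 pairs 11 passed the adjusted permutation test and 10 did before removal, but the counts are not a like comparison. Hoxa9 then had r from 0.74 to 0.83 with Hoxa11, Hoxd11, Hoxd12 and Hoxd13 and -0.579 with Hoxd9. Hoxa9 and Hoxa10 had r = -0.264 over all libraries (permutation p = 0.434, adjusted p = 0.446; rho = -0.255, permutation p = 0.448, adjusted p = 0.448) and 0.825 once litter and genotype effects were removed. Hoxd9 and Hoxd10 had r = 0.857 (permutation p = 0.00044, adjusted p = 0.00144) and rho = 0.855 (permutation p = 0.0014, adjusted p = 0.00371). Once both effects were removed their r was 0.225 (permutation p = 0.505, adjusted p = 0.586). The residuals are too few to show whether these 2 genes also moved together within litters, and removal of litter alone was not tested. Hoxd9 stayed opposed to Hoxd11, Hoxd12 and Hoxd13 with both effects removed, at r = -0.820, -0.799 and -0.761. It was also opposed to Hoxa10, Hoxa11 and Hoxa13, at -0.768, -0.661 and -0.775. Without control 5 and mutant 4, but with litter effects left in, Hoxd9 had r = -0.640, -0.734 and -0.594 with Hoxd11, Hoxd12 and Hoxd13. None of these 3 passed (adjusted p = 0.112, 0.0536 and 0.154 by permutation). Removal of both the effects and those 2 libraries was not tested. After removal of the 2 effects 21 of the 36 pairs passed, and the 11 residuals then carry fewer degrees of freedom than 11 libraries. The permutation shuffled these residuals as if they were independent, so its p-values after removal can be too small. A single litter held at most 4 libraries, too few for a correlation of its own.

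**Figure D3:**
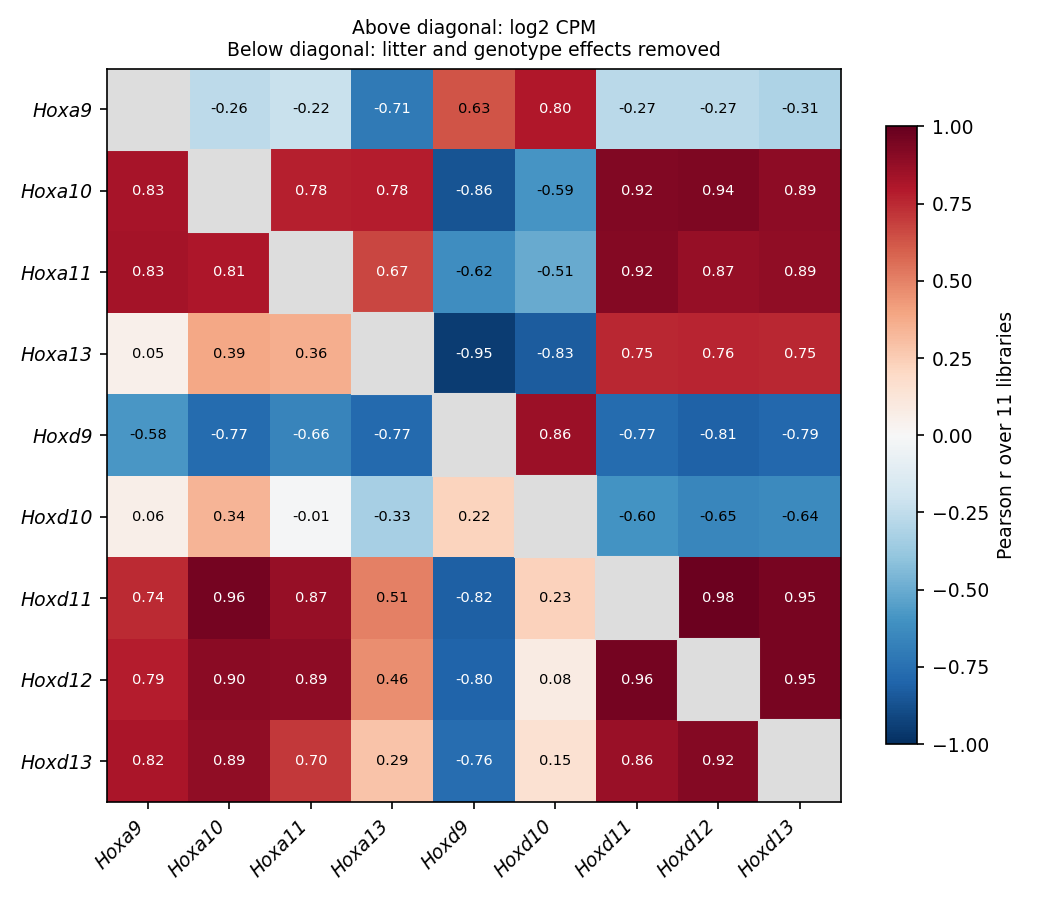
Pearson r between each pair of the 9 genes over the 11 libraries, on log2 CPM above the diagonal and with litter and genotype effects removed below it, red for positive and blue for negative. Hoxd9 is negative with Hoxd11, Hoxd12 and Hoxd13 on both sides, while Hoxa9 with Hoxa10 changes from -0.264 to 0.825.

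**Figure D4:**
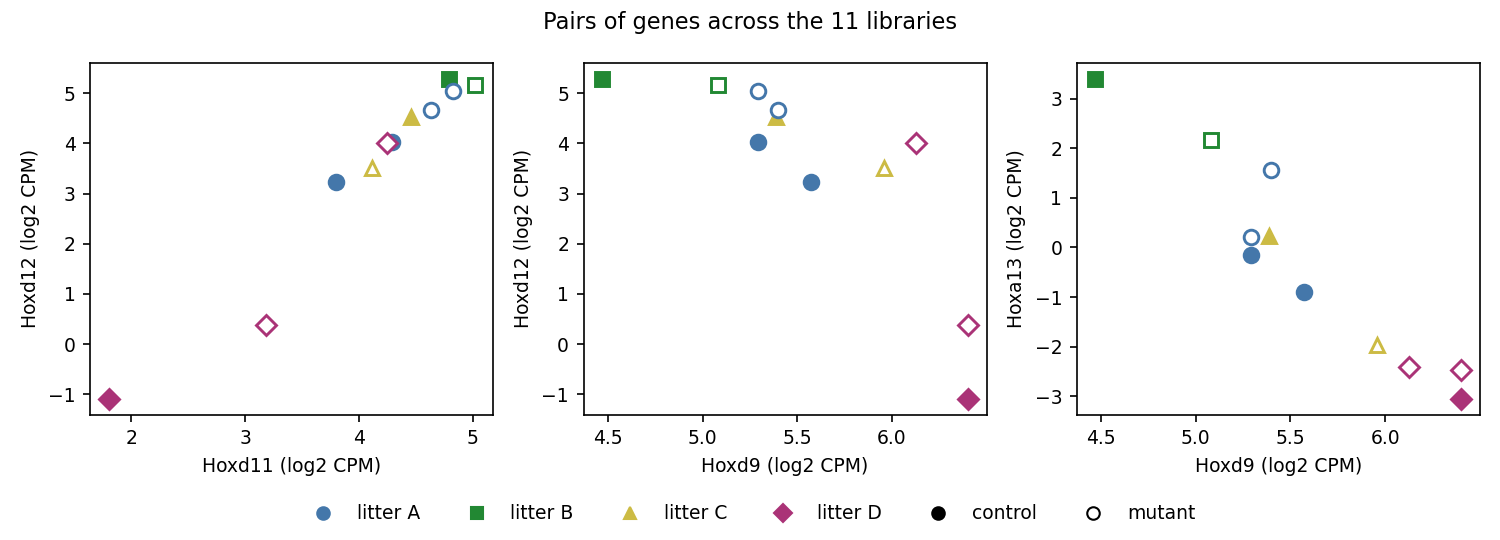
Log2 CPM of Hoxd12 against Hoxd11, Hoxd12 against Hoxd9 and Hoxa13 against Hoxd9 (x and y), 1 point per library, coloured by litter, filled for controls and open for mutants. In the left panel control 5 and mutant 4 lie far below the other 9 libraries, with Hoxd12 at -1.09 and 0.389 log2 CPM. In the right panel litter B and litter D take opposite ends (r = -0.952).

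The 5 genes listed next, all outside the Hox families, had the pattern most like the mean of the members, each centred and scaled, among 12058 genes of at least 1 CPM. They were Ccdc151 (Pearson r 0.933), Scube1 (0.929), Taf4b (0.923), Cyp7b1 (0.920) and Limk1 (0.913), over 11 libraries, as a description with no test. In all 5 control 5 had the lowest value of the 11 libraries. The mean of the members was itself lowest in control 5, at -1.143, with mutant 4 next at -0.3896. The ranking therefore favoured genes that are low in control 5, and their low values there are no separate result. The mean also averages the opposed groups of members, so a gene close to it need not follow either group.

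Between genotypes, 0 of the 9 members passed edgeR's quasi-likelihood test with Benjamini-Hochberg adjustment over all genes, while 2.18% of genes tested did (0.702% higher and 1.48% lower in mutants). At an unadjusted p under 0.05, 3 members passed, Hoxa11, Hoxd11 and Hoxd13, each higher in mutants, against 9.84% of genes in that direction. DESeq2 and limma-voom each called 1 member after adjustment, Hoxa11, against 10.1% of the genes given an adjusted p by DESeq2 and 2.77% of genes in limma-voom. In edgeR, upper-quartile scaling and a filter at 1 CPM also called 1 member, Hoxa11 (2.28% and 4.1% of genes), and no filter on low counts called 4 (5.35%). All 9 log2 fold changes of mutant over control were above 0, as were 50.7% of those of all genes, with a median of 0.15 against 0.00 over all genes tested. The sign was not shared by all fits, as 4 of the 9 turned below 0 without control 5.

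Hoxa11 had the largest change relative to its error. The control mean was 19.0 ± 5.31 CPM (SD, n = 5) and the mutant mean 25.8 ± 6.59 CPM (SD, n = 6). The log2 fold change was 0.53 (SE 0.13, 95% confidence interval 0.24 to 0.82, edgeR adjusted p = 0.0546). It was the only member higher in mutants in all 4 litters, with log2 differences of 0.50 in litter A, 0.56 in B, 0.21 in C and 0.81 in D, against 12.6% of genes tested. An exact two-sided permutation of genotype within litters, with 72 arrangements and a smallest possible p of 0.0139, gave p = 0.0278 and 0.25 after adjustment over the 9 members. The adjusted p of Hoxa11 was 0.00511 with DESeq2, 0.0487 with limma-voom, 0.0461 with upper-quartile scaling and 0.0469 with a filter at 1 CPM, and edgeR gave 0.0678 to 0.207 when 1 library was left out in turn and 0.228 without litter in the model. The antisense transcript Hoxa11os, named here after its values were seen, stood at 31.4 CPM on average in controls and 39.4 in mutants, with a log2 fold change of 0.51 (edgeR adjusted p = 0.0939).

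Hoxd11 had a control mean of 17.2 ± 9.16 CPM (SD, n = 5), a mutant mean of 21.7 ± 8.40 CPM (SD, n = 6) and a log2 fold change of 0.62 ± 0.28 (SE), with an adjusted p of 0.228 in edgeR's test. Hoxd13 had 16.1 ± 12 and 20.1 ± 8.23 CPM and a log2 fold change of 0.70 ± 0.31 (SE), with an adjusted p of 0.224. Hoxd12 had 17.5 ± 14.5 and 20.4 ± 13.3 CPM and a log2 fold change of 0.76 ± 0.60 (SE), with an adjusted p of 0.506. The 95% confidence intervals ran from 0.01 to 1.24 for Hoxd11, from 0.02 to 1.38 for Hoxd13 and from -0.55 to 2.07 for Hoxd12. Their largest differences were in litter D, at 1.92 for Hoxd11, 3.28 for Hoxd12 and 1.81 for Hoxd13, where control 5 is the only control. In litter A, which has 2 libraries of each genotype, they were 0.69, 1.23 and 0.77. In litter B they were 0.23, -0.13 and -0.34 and in litter C -0.34, -1.01 and 0.39. Without control 5 the log2 fold changes fell to 0.31, 0.33 and 0.41. Leaving out control 4 raised those of Hoxd11 and Hoxd12 to 0.87 and 1.22, and leaving out control 3 raised that of Hoxd13 to 0.99.

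The remaining members had fold changes near 0 or of either sign by litter. Hoxa9 had a log2 fold change of 0.03 (95% confidence interval -0.14 to 0.20) and Hoxd10 of 0.02 (-0.12 to 0.16), intervals that exclude a change as large as the estimate for Hoxa11. Hoxd9 had 0.15 (-0.13 to 0.42), with higher mutants in litters B and C (0.61 and 0.57) and values near 0 in litters A and D (-0.09 and -0.14). Hoxa10 had 0.06 (-0.40 to 0.52), from litter values of -0.05, -0.45, -0.34 and 1.09, and became -0.23 without control 5. Hoxa13 had 0.04 with an interval from -1.29 to 1.38 and litter values of 1.42, -1.23, -2.18 and 0.61, and its sign changed in several fits. The adjusted p of these 5 ran from 0.546 to 0.980 in edgeR's test.

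The genotype difference itself was compared between litters by an interaction term. None of the 9 members passed after adjustment in edgeR's quasi-likelihood test (smallest adjusted p = 0.950), and 0% of genes tested did. At an unadjusted p under 0.05 there were 4 members, Hoxa10, Hoxa13, Hoxd9 and Hoxd11, against 3.82% of genes tested. Litters B and C hold 1 library of each genotype, so this test draws its spread from litters A and D.

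**Figure D5:**
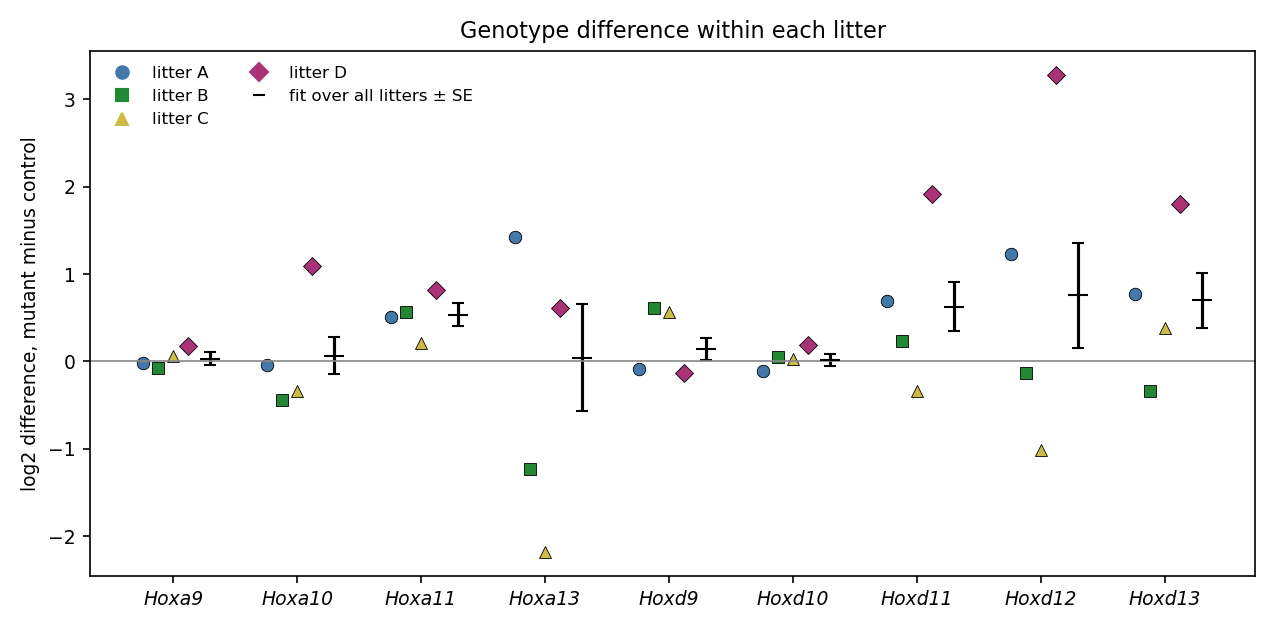
Log2 difference of mutant minus control (y) for each gene (x) within litters A to D, with the fitted log2 fold change ± SE over all litters as a bar. Litter D gives the highest point for Hoxd11, Hoxd12 and Hoxd13, up to 3.28, and the 4 points of Hoxa11 all lie above 0.

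Control 5 and mutant 4 were also set apart in other Hox genes. The 7 HoxA genes of groups 1 to 7 summed to 166 CPM in control 5 and 142.7 in mutant 4 and to 78.0 to 112.4 in the other 9 libraries, and 5 of the 7 were highest in control 5. The 4 HoxD genes of groups 1 to 8 summed to 107.6 and 101.2 CPM in those libraries and to 49.6 to 94.7 in the others. Of these 4, 3 were highest in control 5. Not every 3′ gene was: Hoxa3 and Hoxa6, named after their values were seen, were at 3.29 and 0.701 CPM in control 5, within the range of the other libraries. Between genotypes, 0 of 7 and 0 of 4 passed edgeR's adjusted test, with median log2 fold changes of 0.00 and 0.14. Of the 7 HoxB and HoxC genes of groups 9 to 13, 4 had enough reads to be tested, and 0 passed, with a median of -0.10. Hoxc4, a 3′ HoxC gene, had a log2 fold change of -0.50 (edgeR adjusted p = 0.114).

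In the posterior and Shh pathway list, 5 of 12 genes were lowest in control 5, while the list sums of 301.5 CPM in control 5 and 329.8 in mutant 4 lay within the 299.7 to 373.0 CPM of the other libraries. Gli1, a direct target of the pathway, was at 2.66 CPM in control 5 and 7.02 in mutant 4 and at 8.22 to 16 CPM elsewhere, and its log2 fold change was 0.70 (edgeR adjusted p = 0.170). Ptch1, the Shh receptor and also a target, was at 16.4 and 19.9 CPM in the same libraries and at 26.7 to 46.9 CPM elsewhere. Shh itself had 3 reads in control 5 and 9 to 39 in the others, with an adjusted p of 0.262. Hhip, another target, named after its values were seen, was at 1.12 and 0.595 CPM there, against 0.839 to 2.80 CPM elsewhere. Grem1, a BMP antagonist of the posterior and distal bud, was at 11.7 and 11.5 CPM in those 2 libraries and at 14.9 to 27.6 elsewhere. Of the 12 posterior and Shh pathway genes, 0 passed edgeR's adjusted test, with a median log2 fold change of 0.30. At an unadjusted p under 0.05, 4 were higher in mutants (9.84% of genes tested) and 0 lower (11.5%). These were Grem1, Ptch1, Hand2 and Gli1, each higher in all 4 litters, as were 12.6% of genes tested. The log2 fold change was 0.47 for Grem1 (edgeR adjusted p = 0.112) and 0.37 for Ptch1 (edgeR adjusted p = 0.128). Hand2, which acts upstream of Shh, had 0.37 (edgeR adjusted p = 0.161), Gli3, the pathway's main repressor, had -0.06, and 0 of 6 tested anterior limb genes passed.

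Of the 8 genes and transcripts beside the members, Hottip, Evx2 and Evx1 had most of their reads in litter B, as Hoxa13 did: 81.5%, 70.8% and 58.5%, against 71.4% for Hoxa13. The share was 12.4% to 29.0% for the other 5, and Evx1 was named after its values were seen. Hottip, a noncoding RNA at the 5′ end of HoxA, had 47 reads in control 3, 19 in mutant 6, 7 and 6 in mutants 1 and 2, 2 in control 1 and 0 in the other 6 libraries, and Evx2, next to Hoxd13, had 24 reads in all, 17 of them in control 3 and mutant 6. Cyp26b1, which degrades retinoic acid in the distal bud, was highest in the same libraries of litter B, at 70.8 and 50.4 CPM, against 13.3 to 36.1 CPM elsewhere. Aldh1a2, the retinoic acid synthase of the flank, was named after its values were seen and ran the other way, at 2.73 CPM in control 3, 8.96 in mutant 6, 33.4 in control 5 and 33.5 in mutant 4. Of the 8 genes and transcripts beside the members, 0 of 7 tested passed between genotypes, and of 19 distal limb and retinoic acid genes 1 passed, Lhx9, a mesenchymal transcription factor (log2 fold change -0.50, edgeR adjusted p = 0.0406).

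Meis1 and Meis2 encode cofactors of Hox proteins that mark the proximal limb. Meis1 was at 158.3 to 204.1 CPM in controls and 96.7 to 144.2 in mutants, without overlap, and was the 1 of 7 cofactor genes that passed (log2 fold change -0.63, edgeR adjusted p = 0.0291). Meis2 was at 143.2 CPM in control 5 and 142.0 in mutant 4 and at 85.4 to 115.9 CPM elsewhere, with a log2 fold change of -0.07. Among 14 Polycomb and Trithorax genes, whose products keep Hox genes off or on, Kmt2d was the 1 that passed (-0.73, edgeR adjusted p = 0.0464), and the median of the 14 was 0.01. Of 3 tested Cdx and other early Hox inducers 0 passed.

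Markers of other cell types were compared in the same libraries. The 5 contractile muscle genes summed to 78.8 CPM in control 5, 4.88 to 56.9 in the other controls and 4.10 to 11.5 in mutants, and 3 of the 5 passed as lower in mutants, among them Acta1 (log2 fold change -3.78) and Myl1 (-2.66), both contractile proteins. The 5 sclerotome and trunk somite genes summed to 53.6 CPM in control 5 and 22.3 in mutant 4 and to 19.9 to 32.4 elsewhere, with 2 of the 5 highest in control 5. In mutant 4 the sclerotome gene Pax1 had 0 reads. The neural tube genes summed to 0.205 to 1.12 CPM in all libraries, with Sox1, Sox2 and Olig2 at 0 reads in both control 5 and mutant 4. The 4 neural crest genes summed to 8.41 CPM in control 5, 2.97 in mutant 4 and 3.07 to 6.49 elsewhere. The 6 forelimb mesenchyme genes summed to 716 and 735 CPM in the 2 libraries, within the 645 to 876 CPM of the others. Of the cell type lists, contractile muscle had 3 genes past the adjusted threshold between genotypes, forelimb mesenchyme 1 (Lhx9) and the others 0. The part of these cell types in the 5′ Hox levels was not tested.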

How the data were processed

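Gene-level RNA-seq counts from 11 E10.5 forelimb bud libraries (5 control, 6 mutant) were analysed, grouped by genotype label and, for litters, by title. The authors deposited raw counts of reads per gene name, which featureCounts made on mm10 and GENCODE M9 exons at a mapping quality of at least 10, per the file headers. That command sets no option for strand, read pairs, gene overlaps or multi-mapping reads, and lists 12 alignment files where the table has 11 sample columns. STAR 2.5.4b is named in the submitters' processing notes. Libraries were ribosomal RNA-depleted total RNA, per the labels' protocols.

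Counts were filtered with filterByExpr, which left 15821 genes and 99.9% of counts, scaled by TMM and tested with edgeR 4.0.16 (limma 3.58.1, R 4.3.3) by a two-sided quasi-likelihood F test with litter as a block and genotype, Benjamini-Hochberg adjusted over all genes at 0.05. Litter differences and the interaction were tested on 3 coefficients each. The common biological coefficient of variation was 16.3%. Log2 CPM used a prior count of 2. Per-kilobase levels used the deposited gene length. Alternatives were RLE and upper-quartile scaling, other filters, DESeq2 1.42.0, limma-voom, no block, and each library or litter left out. The fit without control 5 and mutant 4 was chosen after seeing the data. The fitting steps were tested on simulated data.

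The pairing by litter comes from the titles and design text. As a check, residual correlations after group means were -0.16 to 0.37 (median 0.13) in 8 same-litter pairs and -0.33 to 0.17 (median -0.02) in 22 others. No pair of libraries of a group was within counting noise (lowest chi-square per degree of freedom 7.38). The labels do not say that libraries of a group came from separate extractions, so p-values measure the spread between these libraries.

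The members and lists were chosen with earlier results of these data known. Genes named were the 9 members, Shh, Ptch1, Gli1, Gli3, Hand2, Grem1, Evx2, Hottip, Meis1, Meis2, Cyp26b1 and Hoxc4, list genes past the adjusted threshold (up to 6 per list, or 2 for cell type lists), and the 5 nearest patterns. Promoter windows came from RefSeq on GRCm38.p6. Floors on read counts cover counting error only. The confidence intervals of the fold changes come from the edgeR fit and also include the spread between libraries.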

Additional observations from a re-analysis of the deposited data

Results flagged for a closer look

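In mutant 4, of litter D, 2 members lay far below the other mutants: the gap to the nearest of the others, divided by the range of the 6 mutants, was above Dixon's 95% critical value for 6 values. Hoxd12 was at 0.3894 log2 CPM in mutant 4 and Hoxd13 at 2.761 log2 CPM. The same test was run on the highest and lowest library of each gene in each group, 36 comparisons in all, and chance flags about 1 in 20 groups, or 0.9 here. Control 5, which was lower than mutant 4 in both genes, was not far enough from the other controls to pass in its group of 5.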

How the results depend on the processing

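Counts of 0 to 2 reads limit Hoxa13 in litter D and in mutant 5, and 4 litters limit the litter test. Between genotypes the number of members past the adjusted threshold was 0 in the edgeR fit and 1 with upper-quartile scaling, with a filter at 1 CPM in at least 5 libraries, with DESeq2 and with limma-voom, and 4 with no filter on low counts. Over all genes it was 345, and became 1566 with no filter, 550 with the 1 CPM filter and 1194 with DESeq2. DESeq2 gave no adjusted p for Hoxa13. Upper-quartile scaling raised the share of calls that were higher in mutants from 32.2% to 43.1%. Without the replicate block, the pairing by litter, 16 genes passed, all 16 among the 345, and Hoxa10 and Hoxa13 had log2 fold changes of -0.19 and -0.83. Leaving out 1 library in turn gave 1 to 850 genes and 0 members. Leaving out litters A, B, C or D gave 9, 3, 1 and 148 genes, and leaving out control 5 and mutant 4 gave 127. The number of genes past the interaction test was 0, and 438 with no filter. The number that differed by litter was 14, and became 2 with upper-quartile scaling, 1583 with no filter and 0 to 87 with 1 library left out. Hoxa13 was below 0 with limma-voom (-0.53), without litter A (-1.42), without litter D (-0.0266) and without control 5 and mutant 4 (-0.0273), and with 1 library left out ran from -0.63 to 0.70. Without litter D and without control 5 and mutant 4, Hoxa10 was at -0.23 in each, Hoxa9 at -0.0163 and -0.0184 and Hoxd10 at -0.0357 and -0.0378. With 1 library left out, Hoxa10 ran from -0.23 to 0.20, Hoxa9 from -0.0166 to 0.0731 and Hoxd10 from -0.0361 to 0.0488. Of the 36 pairs of members 28 passed the permutation test of correlation, which did not keep litters together. The number was 17 without the 2 farthest libraries, 7 without control 5 and mutant 4, and 21 with litter and genotype removed (the replicate block). Of the 7 steps along the clusters 5 passed, and 0 in controls alone, where 5 libraries cannot reach the threshold. The cause of these changes was not tested.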

Other observations

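Xist and Y-linked reads were counted because the labels give no sex. Mutant 5 had 8 Xist reads and 4 Y-linked reads, while the other 10 libraries had either 939 to 1193 Xist reads with 8 to 24 Y-linked reads or 1 to 9 Xist reads with 1667 to 2716 Y-linked reads. Mutant 5 was at no extreme in any of the 9 Hox genes within its group.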
